A study of Mus musculus with 6 samples.

Results

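The HoxA cluster is the run of homeobox genes on mouse chromosome 6, and 9 of its genes were examined here in RNA-seq counts from blood-forming stem and progenitor cells: Hoxa2, Hoxa3, Hoxa4, Hoxa5, Hoxa6, Hoxa7, Hoxa9, Hoxa10 and Hoxa11. They were taken by symbol from the 24063 gene symbols listed in every count table. No count value entered the list, but it was chosen with earlier results of these data known. Of the 9 genes, 8 passed the filter on low counts that left 14145 genes to test. The gene left out, Hoxa11, had 5 counts over all 6 libraries. The cells were LSK cells (lineage-negative, Sca-1+, c-Kit+ marrow cells), sorted from C57BL/6 mice after injection of pIpC. All mice carried Mx1-cre, a Cre recombinase under an interferon-inducible promoter that pIpC switches on and that also acts outside blood cells. In 3 mice (Asxl2-/- per the labels, Mx1-cre Asxl2 fl/fl per the methods of the study) it removed exon 11 of Asxl2, and 3 Mx1-cre mice labelled wild type served as controls. Cells were taken 4 weeks after pIpC according to the methods of the study, and the sources used here give no ages.

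Hox genes encode transcription factors that bind DNA through a homeodomain, and they sit in clusters in which the order of the genes follows the order of their domains along the body axis. In the blood system the HoxA genes, Hoxa9 foremost, are active in stem and early progenitor cells and fall as cells mature, and they act together with TALE homeodomain partners such as the Meis proteins. Trithorax-type complexes that contain Kmt2a keep the cluster active, Polycomb complexes keep it silent, and Asxl proteins are partners of the deubiquitinase Bap1 that works on a Polycomb mark. The comparison asked how each member, by its place in the cluster, differed in Asxl2-/- LSK cells from controls.

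Libraries differed in ways that bear on all values below. Asxl2-/- replicates 1 and 3 and control replicate 2 were deposited as counts per transcript (gene-count files, totals of 25528540 to 29136012 counts), and Asxl2-/- replicate 2 and control replicates 1 and 3 as counts per exon (exon-count files, 53147729 to 55032075 after summing the exons). A read across a splice junction can enter the exon sum more than once, so the totals of the file kinds are not comparable as depth. How far the larger totals reflect deeper sequencing was not tested. CPM (counts scaled by the library total after TMM normalisation) are therefore set side by side within a kind of file, and file kind was a term in the test. Total Asxl2 counts differed by a log2 fold change of 0.11 (edgeR adjusted p = 0.469), while exon 11 held 28 of 4804 Asxl2 exon counts in Asxl2-/- replicate 2, a share of 0.583% (95% Wilson interval 0.404 to 0.841), against 10.3% and 12.0% in control replicates 1 and 3. The other 2 Asxl2-/- libraries have no exon counts with which to check the deletion. All 3 Asxl2-/- libraries had 49540 to 66689 Xist counts and at most 2 counts for each of 4 Y-linked genes, and all 3 control libraries had 1026 to 4807 counts for those Y-linked genes, so genotype and sex cannot be told apart in any comparison. Control replicate 1 stood apart from the other controls in its Xist count, with 3194 against 590 and 615. Over all genes tested, 288 were higher and 43 lower in Asxl2-/- cells at an adjusted p under 0.05, and the median log2 fold change was 0.000523.

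On the mm10 build the members span chromosome 6 from 52162417, the low end of Hoxa2, to 52245810, the high end of Hoxa11, and all are read from the high towards the low coordinate. Hoxa13 lies beyond Hoxa11. From Hoxa2 the start coordinates of the others lie 6.64 kb (Hoxa3), 27.3 kb (Hoxa4), 39.3 kb (Hoxa5), 43.9 kb (Hoxa6), 53.2 kb (Hoxa7), 60.7 kb (Hoxa9), 68.8 kb (Hoxa10) and 79.7 kb (Hoxa11) along the chromosome. Each chosen transcript has 2 exons apart from that of Hoxa3, which has 5 and whose introns contain Hoxa4, Hoxa5 and Hoxa6.

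Levels per length described a profile with its peak at Hoxa9 in both groups. After the fitted effect of file kind was removed, Hoxa9 had 17.8 RPKM (the CPM divided by transcript length in kilobases) in Asxl2-/- cells and 8.94 in controls, the highest level of the cluster. In controls the order of levels below it was Hoxa7 (2.90 RPKM), Hoxa5 (1.88), Hoxa6 (1.41), Hoxa10 (1.40), Hoxa3 (1.02), Hoxa4 (0.614) and Hoxa2 (0.256). Of these neighbours in the control order, Hoxa9 stood above Hoxa7 and Hoxa4 above Hoxa2 by more than the summed SDs of the pair, and the others did not. In Asxl2-/- cells Hoxa10, at 6.26 RPKM, stood in the second place rather than the fifth, beside Hoxa7 at 6.19. There the levels were 4.28 RPKM for Hoxa5, 3.43 for Hoxa6, 2.57 for Hoxa3, 0.909 for Hoxa2 and 0.866 for Hoxa4. By the same measure Hoxa9 stood above Hoxa10, Hoxa7 above Hoxa5 and Hoxa3 above Hoxa2 in that order, and the other neighbours did not differ beyond their spread. Hoxa11 had 3, 0 and 1 counts over Asxl2-/- replicates 1, 2 and 3 against 0, 1 and 0 over the controls, so a difference in this gene of limb and kidney development was not detectable at this depth.

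**Figure D1:**
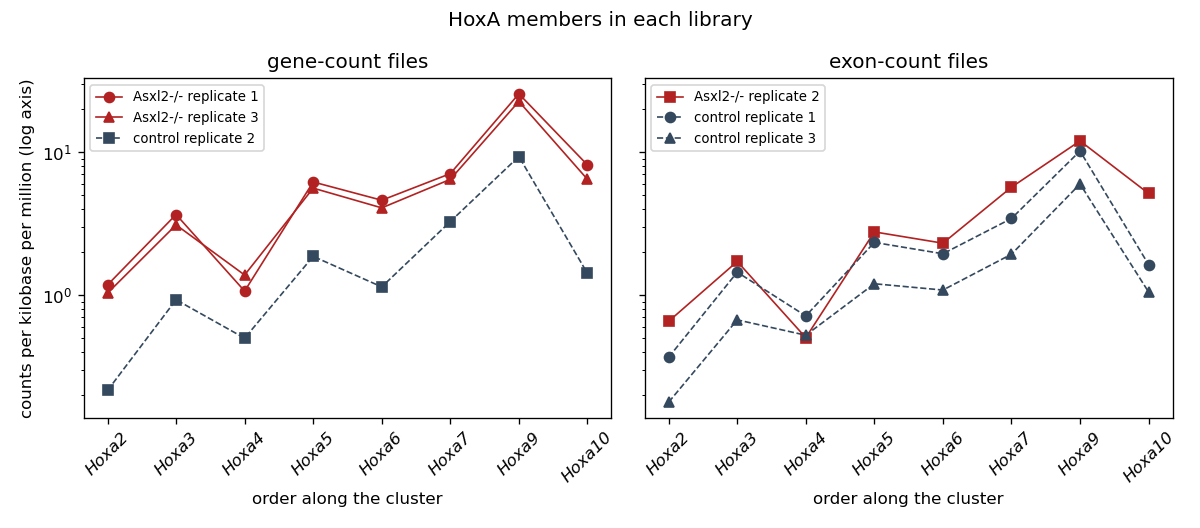
RPKM (log axis) of the 8 tested members in their order along the cluster, in the 3 gene-count files (left) and the 3 exon-count files (right), 1 line per library, red for Asxl2-/- and dark dashed for control. The gene-count Asxl2-/- libraries lie above the control for each of the 8 members, whereas in the exon-count files the Asxl2-/- library lies below both controls at Hoxa4. Levels are not comparable between the panels.

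All 8 tested members had a log2 fold change above 0, from 0.47 (Hoxa4) to 2.14 (Hoxa10), with a median of 1.19. Hoxa10 alone passed the threshold after adjustment, 1 of 8 members raised against 2.04% of all genes tested raised and 0.304% lowered. At an unadjusted p under 0.05, 7 of the 8 were higher and none was lower, while 15.0% of all genes were higher and 12.6% lower by that rule. Within each kind of file every Asxl2-/- CPM exceeded every control CPM for 7 of 8 members, all but Hoxa4, which held for 25.4% of all genes tested. The same 7 did so over all 6 libraries, file kinds mixed, as did 15.4% of all genes, and groups are said below not to overlap where both hold. The summed member counts came to 145.7 and 127.9 CPM in Asxl2-/- replicates 1 and 3 against 48.1 in control replicate 2, and to 76.3 CPM in Asxl2-/- replicate 2 against 55.1 and 31.7 in control replicates 1 and 3. The Asxl2-/- library was thus the higher within either kind of file, with a wider gap in the gene-count files. The median difference of the members was 1.76 on the log2 scale among gene-count files and 0.76 among exon-count files, and 7 of 8 members, all but Hoxa7, had the larger difference in the gene-count files, a direction shown by 50.4% of all genes. In bulk samples a larger number of cells with these transcripts and more RNA per cell cannot be told apart.

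The count of members past the threshold depended on single libraries. Without control replicate 1, whose member levels were the higher of the 2 exon-count controls, 6 of 8 members passed (Hoxa2, Hoxa3, Hoxa5, Hoxa7, Hoxa9 and Hoxa10) and the median was 1.5. Without Asxl2-/- replicate 2 only Hoxa10 passed, and the median was 1.76. None passed without Asxl2-/- replicate 1, Asxl2-/- replicate 3, control replicate 2 or control replicate 3, when the adjusted p of Hoxa10 was 0.0802, 0.0547, 0.0541 and 0.110 and its log2 fold change 1.93 to 2.15. Without control replicate 2 the median fell to 0.67. Across all genes those same omissions left 1312 calls without control replicate 1, 659 without Asxl2-/- replicate 2, and 16, 96, 124 and 9 without the libraries in the order just given. DESeq2 with the same terms called the same 6 members as the test without control replicate 1, among 2302 genes called.

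**Figure D2:**
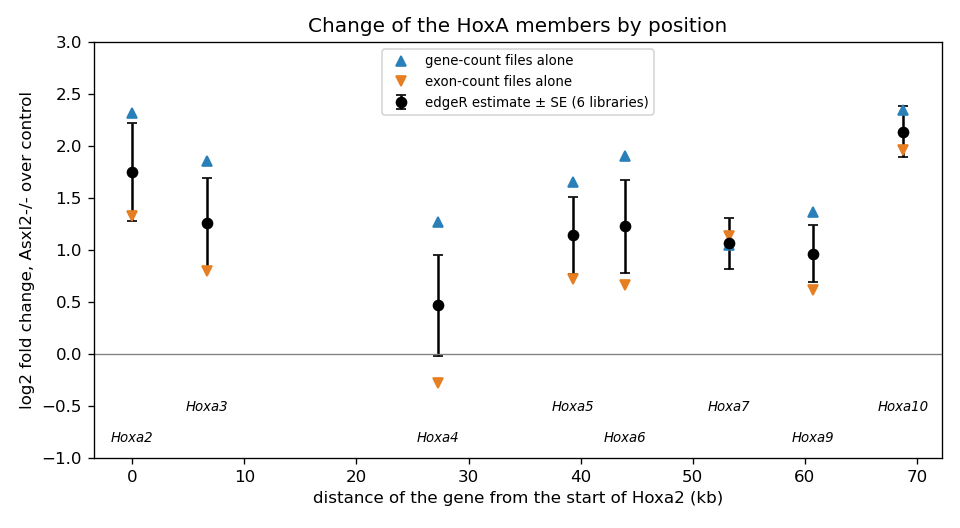
Log2 fold change of Asxl2-/- over control (vertical axis) for each tested member by its distance from the start of Hoxa2 in kilobases (horizontal axis), with the edgeR estimate and its SE from 6 libraries in black and the differences within the gene-count files (blue) and exon-count files (orange) beside it. Hoxa10 has the highest estimate at 2.14, and Hoxa4 the lowest at 0.47, where the exon-count files give -0.28.

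Hoxa10, a regulator of stem-cell self-renewal and of megakaryocyte and myeloid differentiation, had 20.9 and 16.6 CPM in Asxl2-/- replicates 1 and 3 and 3.65 in control replicate 2. The exon-count files gave 13.2 CPM in Asxl2-/- replicate 2 and 4.20 and 2.70 in control replicates 1 and 3. The groups did not overlap, and Hoxa10 rose 4.41-fold (log2 fold change 2.14, SE 0.24, adjusted p = 0.0196), from 1.85 ± 0.34 to 4.01 ± 0.20 log2 CPM (mean ± SD, n = 3 each). On the log2 scale its gap was 2.35 among gene-count files and 1.97 among exon-count files. It took up 14.4%, 17.3% and 12.98% of the summed member counts in Asxl2-/- replicates 1, 2 and 3 against 7.63%, 7.59% and 8.52% in control replicates 1, 2 and 3.

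A pair of RefSeq transcripts of Hoxa10 share the last exon and begin at different first exons, a proximal one (52233959 to 52234939) and a distal one (52240278 to 52240854) that lies towards Hoxa11. Their start regions, 250 bases before to 50 bases after the start on the minus strand (RefSeq, GRCm38.p6), are printed with that of the neighbour Hoxa9 because the proximal start carries most of the first-exon counts of the member that passed the threshold. Capitals mark matches on either strand to 3 motifs that do not overlap one another here. The motif of a TATA box was searched as TATAAA. For the core bound by Meis factors the letters were TGACAG. Runx factors were represented by TGTGGT.
Hoxa10 proximal, chr6:52234890-52235189: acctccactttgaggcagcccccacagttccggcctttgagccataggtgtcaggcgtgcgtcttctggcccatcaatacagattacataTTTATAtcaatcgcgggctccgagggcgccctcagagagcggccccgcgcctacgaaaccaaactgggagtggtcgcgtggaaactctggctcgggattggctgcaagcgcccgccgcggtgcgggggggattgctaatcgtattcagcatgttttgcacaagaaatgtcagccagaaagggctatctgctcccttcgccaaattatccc
Hoxa10 distal, chr6:52240805-52241104: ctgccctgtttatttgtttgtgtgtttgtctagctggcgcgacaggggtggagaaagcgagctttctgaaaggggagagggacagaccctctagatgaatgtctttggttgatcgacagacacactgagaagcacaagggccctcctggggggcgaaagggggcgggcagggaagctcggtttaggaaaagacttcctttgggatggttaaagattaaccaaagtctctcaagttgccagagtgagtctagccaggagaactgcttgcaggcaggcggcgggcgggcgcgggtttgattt
Hoxa9, chr6:52227321-52227620: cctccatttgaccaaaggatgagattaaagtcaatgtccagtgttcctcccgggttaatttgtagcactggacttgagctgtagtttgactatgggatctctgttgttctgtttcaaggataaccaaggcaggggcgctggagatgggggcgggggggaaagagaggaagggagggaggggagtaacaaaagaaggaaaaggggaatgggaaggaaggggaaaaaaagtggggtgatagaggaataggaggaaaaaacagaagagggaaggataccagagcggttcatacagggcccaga
The proximal Hoxa10 region holds 1 TATAAA match, read on the opposite strand as TTTATA. This match lies well upstream of the start, and whether it works as a TATA box was not tested. The other 2 regions hold no match to any of the motifs. TATAAA occurs in 13.6% of 32851 start regions of this length, TGACAG in 19.2% and TGTGGT in 16.8%. Start regions were at hand for 8 of the 9 members, 9 regions in all, of which 1 held TATAAA, 2 held TGACAG (Hoxa2 and Hoxa3) and 0 held TGTGGT. The proximal Hoxa10 region has 21 CG dinucleotides, the distal one 12 and that of Hoxa9 4, beside a median of 7 over all regions.

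Hoxa9, which drives expansion of stem and progenitor cells and acts with Meis1 in leukaemia, had by far the most counts, 869 to 2337 per library. Its values were 82.9 and 73.4 CPM in Asxl2-/- replicates 1 and 3 against 30.2 in control replicate 2, and 38.8 in Asxl2-/- replicate 2 against 33.0 and 19.4 in control replicates 1 and 3. The groups did not overlap, although Asxl2-/- replicate 2 and control replicate 1 were close. The log2 fold change was 0.97 (SE 0.28, adjusted p = 0.103), with 4.85 ± 0.44 log2 CPM in controls and 5.85 ± 0.23 in Asxl2-/- cells (n = 3 each).

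Hoxa7, also active in progenitors and in leukaemias with Kmt2a rearrangements, came nearest to the threshold of the members that missed it. It had 13.8 and 12.6 CPM in Asxl2-/- replicates 1 and 3 and 6.39 in control replicate 2, with 11.1 in Asxl2-/- replicate 2 and 6.72 and 3.78 in control replicates 1 and 3. All Asxl2-/- values exceeded all control values, with a log2 fold change of 1.07 (SE 0.25, adjusted p = 0.0754). Its difference was 1.05 among gene-count files and 1.14 among exon-count files.

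Hoxa5, known for a role in the choice between erythroid and myeloid fates, had 11.6 and 10.5 CPM in Asxl2-/- replicates 1 and 3 against 3.51 in control replicate 2. In Asxl2-/- replicate 2 it had 5.20 CPM, and in control replicates 1 and 3 it had 4.39 and 2.26. Its groups did not overlap, and its log2 fold change was 1.14 (SE 0.37, adjusted p = 0.123). Hoxa6, which lies between Hoxa5 and Hoxa7, had 23 to 91 counts per library. Its CPM were 3.23 and 2.86 against 0.799 among gene-count files and 1.62 against 1.36 and 0.759 in the exon-count files, Asxl2-/- first. The log2 fold change of Hoxa6 was 1.23 (SE 0.45, adjusted p = 0.149), and again the groups did not overlap.

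The members at the low-coordinate end have their best known roles outside blood, Hoxa2 in the hindbrain and face and Hoxa3 in the thymus and parathyroid. Hoxa2 had 59, 62 and 52 counts over Asxl2-/- replicates 1, 2 and 3 against 34, 11 and 15 over control replicates 1, 2 and 3, or 1.17 to 2.09 CPM against 0.316 to 0.652. With a log2 fold change of 1.76 (SE 0.47, adjusted p = 0.0929) it was next to Hoxa10 in the size of its estimate, on far fewer counts. Hoxa3 had 9.33 and 7.90 CPM in Asxl2-/- replicates 1 and 3 against 2.36 in control replicate 2, and 4.38 in Asxl2-/- replicate 2 against 3.68 and 1.71 in control replicates 1 and 3. For Hoxa3 the log2 fold change was 1.26 (SE 0.43, adjusted p = 0.132), and its groups, like those of Hoxa2, did not overlap.

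Hoxa4, which can expand stem cells when overexpressed, was the exception among the 8. It had 1.63 and 2.12 CPM in Asxl2-/- replicates 1 and 3 against 0.764 in control replicate 2, but 0.770 in Asxl2-/- replicate 2 against 1.09 and 0.801 in control replicates 1 and 3. The groups overlapped, since Asxl2-/- replicate 2 lay below both controls of its file kind. The log2 fold change was 0.47 (SE 0.49, edgeR adjusted p = 0.556), 1.27 among gene-count files and -0.28 among exon-count files. It was -0.30 without control replicate 2, when only the exon-count files hold both groups. With 22 to 60 counts per library a difference of this size was not detectable.

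Ratios between neighbours within a library do not depend on the scaling between libraries, and they were used to ask whether members side by side changed by unequal amounts. Each was the log2 ratio of counts per kilobase with 0.5 counts added, compared over 7 neighbouring pairs by a two-sided exact permutation test. With 3 libraries against 3 that exact permutation test cannot go below p = 0.1, so no pair could pass 0.05. The ratio of Hoxa10 to Hoxa9 was -1.65, -1.22 and -1.81 over Asxl2-/- replicates 1, 2 and 3 against -2.64, -2.71 and -2.51 over control replicates 1, 2 and 3. It was 1.06 higher in Asxl2-/- cells without overlap (exact permutation p = 0.1, adjusted over the pairs 0.175), 0.98 higher among gene-count files and 1.35 higher among exon-count files. This was the widest step of the 7.

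A further 3 pairs did not overlap between the groups, each with exact permutation p = 0.1 and adjusted p = 0.175. How often the ratios of other gene pairs separate in this way was not tested, so the count of separate pairs is a description only. Hoxa4 to Hoxa3 was -1.77, -1.76 and -1.16 over Asxl2-/- replicates 1, 2 and 3 against -1.01, -0.87 and -0.35 over the controls, a difference of -0.82. Hoxa5 to Hoxa4 averaged 2.33 ± 0.28 in Asxl2-/- cells and 1.59 ± 0.36 in controls (mean ± SD, n = 3 each), a difference of 0.74. Both of these share Hoxa4, whose relative level among its neighbours was therefore the lower in each Asxl2-/- library. The gap was narrow, on 22 to 60 Hoxa4 counts per library. For Hoxa5 to Hoxa4 the nearest values were 2.01 in Asxl2-/- replicate 3 and 1.88 in control replicate 2. Whether counting error alone gives such a gap was not tested. Hoxa3 to Hoxa2 averaged 1.53 ± 0.13 and 1.96 ± 0.09, a difference of -0.43. Hoxa3 has 5 exons, and with only the largest exon of each gene taken from the exon-count files that difference was -0.20 and the separation was lost (exact permutation p = 0.7). The remaining pairs overlapped, with differences of -0.02 for Hoxa6 to Hoxa5, -0.19 for Hoxa7 to Hoxa6 and 0.01 for Hoxa9 to Hoxa7 (exact permutation p = 1, 0.5 and 1). In each of these 3 pairs the file kinds went opposite ways. For Hoxa7 to Hoxa6 the difference was -0.86 among gene-count files and 0.48 among exon-count files, for Hoxa9 to Hoxa7 0.32 and -0.52, and for Hoxa6 to Hoxa5 0.25 and -0.06.

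**Figure D3:**
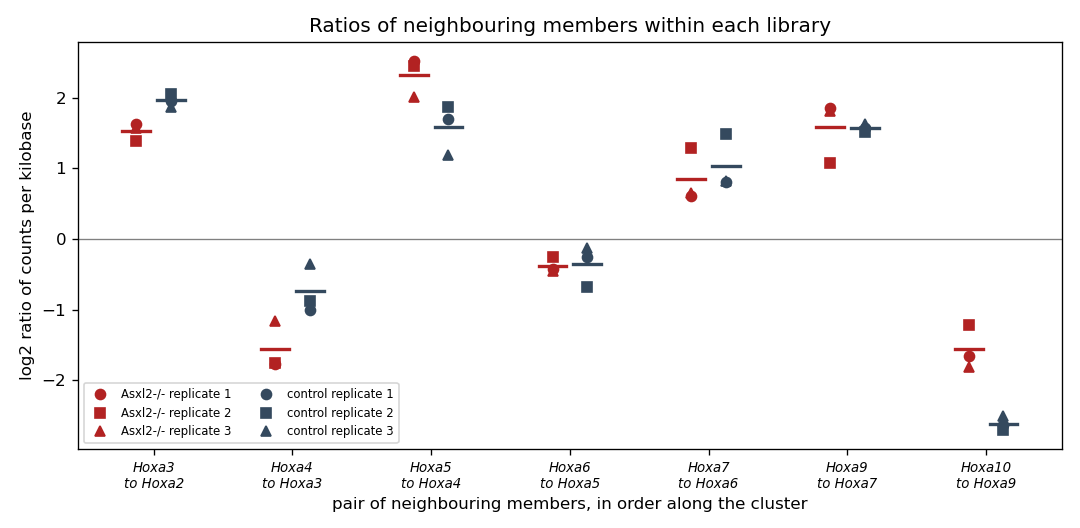
Log2 ratio of counts per kilobase (vertical axis) for each pair of neighbouring members in order along the cluster (horizontal axis), 1 point per library with the marker giving the replicate number, red for Asxl2-/- and dark for control, and a bar at each group mean. The groups are separate at Hoxa3 to Hoxa2, Hoxa4 to Hoxa3, Hoxa5 to Hoxa4 and Hoxa10 to Hoxa9, the last by 1.06, and overlap at the other 3 pairs.

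Exon counts exist for 1 Asxl2-/- library and 2 control libraries only, so they describe those libraries and no test of the conditions was made. The intervals are 95% Wilson intervals and, since the reads carry no molecular identifiers, cover counting error only. At Hoxa10 the last exon held 636 counts in Asxl2-/- replicate 2 and 196 and 118 in control replicates 1 and 3, and the proximal first exon 67, 23 and 10. Both exons were higher by nearly the same amount, 1.94 and 1.95 on the log2 scale of CPM over the mean of the controls. The share of the proximal first exon was accordingly alike, 9.53% (interval 7.57 to 11.9), 10.5% (7.10 to 15.3) and 7.81% (4.30 to 13.8).

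The distal first exon of Hoxa10, downstream of the distal start region printed above, had 17 counts in Asxl2-/- replicate 2, 2 in control replicate 1 and 0 in control replicate 3. Of the counts of that transcript it made up 2.60% (1.63 to 4.13), 1.01% (0.277 to 3.61) and 0 of 118, which allows a share of up to 2.54% taken as 3 counts of the total (Wilson upper bound 3.15%). The intervals overlap, but overlap is not a test. The share also rests mostly on the shared last exon, 636 of 653 counts in Asxl2-/- replicate 2. Distal and proximal first exons had 17 and 67 counts in that library. They had 2 and 23 in control replicate 1, and 0 and 10 in control replicate 3. With so few distal counts, a shift towards the distal start was not tested. Summed over its exons the distal transcript had 440 to 653 counts in the Asxl2-/- libraries and 101 to 198 in controls, and in the exon-count files nearly all of them came from the last exon that both transcripts share.

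The observed ratio of the Hoxa5 exons differed between Asxl2-/- replicate 2 and the 2 controls, a difference that was not tested. Its last exon was higher in Asxl2-/- replicate 2 by 0.93 on the log2 scale over the mean of the controls, and its first exon by 0.18. The first exon held 31.8% (26.6 to 37.5) of the Hoxa5 counts in Asxl2-/- replicate 2, 42.8% (36.6 to 49.3) in control replicate 1 and 45.8% (36.7 to 55.2) in control replicate 3. The interval of the Asxl2-/- library overlapped those of the controls at its edge. At Hoxa4 the first exon held 3 of 41, 10 of 57 and 6 of 38 counts, too few to separate the shares.

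Hoxa9 and Hoxa7 kept their exon shares alike in the 3 libraries. The last exon of Hoxa9 held 74.5% (72.6 to 76.4) in Asxl2-/- replicate 2 and 72.0% (69.8 to 74.1) and 75.3% (72.4 to 78.0) in control replicates 1 and 3. Hoxa7 had the reverse layout, with the larger share in its first exon, 58.4% (54.4 to 62.3), 60.0% (54.8 to 65.0) and 54.7% (47.4 to 61.9) in the same order. Hoxa2 had 13 of 62 counts in its first exon in Asxl2-/- replicate 2, and 4 of 34 and 1 of 15 in control replicates 1 and 3. Hoxa6 had 45.3%, 40.8% and 50% there, with overlapping intervals.

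Hoxa3, the member with 5 exons, put 50.6% and 50% of its counts into its last exon in Asxl2-/- replicate 2 and control replicate 1 and 64.2% (53.3 to 73.8) in control replicate 3. Its first exon of 28 bases had 29, 20 and 5 counts, and it overlaps the antisense transcript Hoxaas3, whose reads cannot be told apart from those of Hoxa3 without strand. The other exons of the members overlap no other listed gene apart from the first exon of Hoxa11, which overlaps Hoxa11os.

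Hoxa2, Hoxa4 and Hoxa6 had too few counts or too short an exon for a comparison of density. Set against 128 genes with 2 exons of at least 300 bases, the first exons of Hoxa10, Hoxa9 and Hoxa7 were thinly covered for their length. The log2 density of the first over the last exon averaged -2.57 for Hoxa10 (percentile 7.03 of the 128 genes), -1.92 for Hoxa9 (10.9) and -1.47 for Hoxa7 (14.8), beside a median of -0.40. For these 3 members the density was lower in the first exon in the Asxl2-/- library and in both controls. Hoxa5 averaged -0.15 (67.2), from -0.67 in Asxl2-/- replicate 2, 0.02 in control replicate 1 and 0.19 in control replicate 3, so its last exon was the denser in the Asxl2-/- library only.

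**Figure D4:**
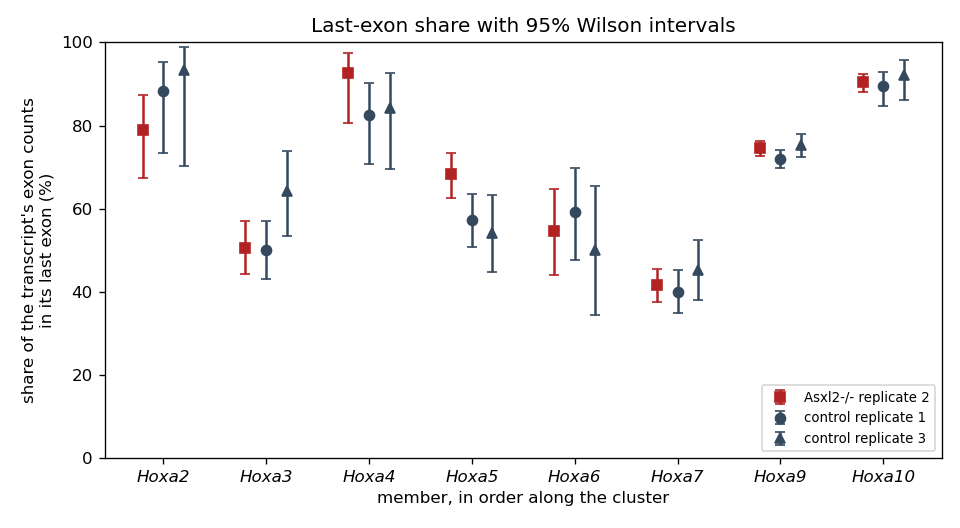
Share of a member's exon counts that lay in its last exon, in percent (vertical axis), with 95% Wilson intervals, for each tested member in order along the cluster (horizontal axis) in Asxl2-/- replicate 2 (red) and control replicates 1 and 3 (dark). At Hoxa5 the Asxl2-/- library lies above both controls, and at Hoxa10, Hoxa9 and Hoxa7 the 3 libraries lie close together.

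Noncoding RNAs of the cluster were read beside the members, and of Mira, Hoxaas3 and the miR-196b locus none passed the edgeR threshold, with Mira alone under 0.05 at an unadjusted p. Mira, a noncoding RNA between Hoxa6 and Hoxa7, had 16.7 and 12.8 CPM in Asxl2-/- replicates 1 and 3 against 6.91 in control replicate 2, and 9.51 in Asxl2-/- replicate 2 against 5.60 and 4.39 in control replicates 1 and 3. Its groups did not overlap, and with a log2 fold change of 1.01 (SE 0.19, adjusted p = 0.0541) it was close to its neighbour Hoxa7. Hoxaas3 gave 0.89 (adjusted p = 0.301). Hoxa11os, antisense to Hoxa11, had 5, 1 and 2 counts in the Asxl2-/- libraries and 0 in each control, and Hoxa13, Hottip, Halr1 and Evx1 were at 0 in every library.

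The hairpin locus of miR-196b, a microRNA that targets Hox transcripts, lies between Hoxa9 and Hoxa10 and had 24, 17 and 11 counts over Asxl2-/- replicates 1, 2 and 3 against 14, 7 and 9 over control replicates 1, 2 and 3. Its log2 fold change was 0.87 (SE 0.55, adjusted p = 0.338). These poly(A) libraries do not measure the mature strands, which are shown with the seed, bases 2 to 8, in capitals because the locus sits between the most abundant member and the one that passed the threshold (RefSeq, GRCm38.p6, minus strand, chr6:52230129-52230150 and chr6:52230094-52230115).
mmu-miR-196b-5p: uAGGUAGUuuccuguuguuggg
mmu-miR-196b-3p: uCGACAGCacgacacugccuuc

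Genes flanking the cluster were read for comparison. Of 7 listed genes that start within 500 kb of the members, 3 were tested and 0 were called by edgeR, and 0 had an unadjusted p under 0.05: Skap2 with a log2 fold change of 0.16, Hibadh with -0.02 and Tax1bp1 with 0.01. Hibadh, an enzyme of valine breakdown, had 84.6 and 87.0 CPM in Asxl2-/- replicates 1 and 3 and 88.6 in control replicate 2, with 89.8 in Asxl2-/- replicate 2 and 84.6 and 93.0 in control replicates 1 and 3, and the groups overlapped.

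Hox genes of the other clusters also stood higher. Of 28 listed in HoxB, HoxC and HoxD, 9 had enough counts to be tested, all 9 had a log2 fold change above 0 and an unadjusted p under 0.05, and 1 passed the threshold. Genes that pass the filter on low counts through their higher group alone had to differ, so this count is a description. Over all genes tested, 15.0% were higher at an unadjusted edgeR p under 0.05, and 2.04% were raised past the threshold. The gene past the threshold was Hoxb2, a hindbrain patterning gene also active in progenitors, with 12.3 and 15.6 CPM in Asxl2-/- replicates 1 and 3 against 5.11 in control replicate 2, and 9.34 against 3.70 and 4.77 in the exon-count files (log2 fold change 1.29, SE 0.20, adjusted p = 0.0380). Hoxb3, which acts with Hoxb4 in stem cells, had 1.46 (adjusted p = 0.0528) and Hoxb6 had 1.90 (adjusted p = 0.0551). The median over these 9 was 1.90, and the filter bears on it in the same way. Hoxc6, for instance, had 7, 31 and 16 counts over Asxl2-/- replicates 1, 2 and 3 and 4, 1 and 2 over the controls (log2 fold change 3.28). That median is therefore not comparable with the 1.19 of the HoxA members, and the difference between the lists was not tested.

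Meis1, the TALE partner of Hoxa9 and Hoxa10, had 127.1 and 116.6 CPM in Asxl2-/- replicates 1 and 3 against 40.5 in control replicate 2, and 107.3 in Asxl2-/- replicate 2 against 83.1 and 51.6 in control replicates 1 and 3, a log2 fold change of 1.12 (adjusted p = 0.0818). With file kind removed, Meis1 was also among the 5 genes whose profile over the 6 libraries was most like the mean of the members (r = 0.999). The others were Chka, Lama4, Adcy9 and Casd1, of which Lama4 was near the floor, at 0 to 0.752 CPM. With 6 points from which file kind was removed such a likeness is common, since 2075 of 14133 genes had r over 0.9.

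Regulators that act on the cluster were counted next. Beside these counts, 15.0% of all genes tested were higher and 12.6% lower at an unadjusted edgeR p under 0.05. Of 16 tested activators, a list that holds Kmt2a and its partners, 0 passed the edgeR threshold, 1 had an unadjusted p under 0.05 in each direction, and the median log2 fold change was -0.03. Aff4, of the elongation machinery, had 0.40 (adjusted p = 0.109) and Dot1l, the histone H3 lysine methyltransferase, -0.30 (adjusted p = 0.113). Of 23 Polycomb genes 1 passed, Pcgf2, which rose by 1.48 on the log2 scale (SE 0.25, adjusted p = 0.0440), 7 were higher and 0 lower at an unadjusted p under 0.05, and the median was 0.13. Among 12 genes regarded as acting downstream of Hoxa9 and Meis1, 0 passed the edgeR threshold, 2 had an unadjusted p under 0.05 with a higher value, and the median was 0.33. Erg, a stem-cell transcription factor, had the smallest p of those, with a log2 fold change of 0.84 (adjusted p = 0.0831).

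Marker genes of the gate and of other cell types were read beside the members. Of 7 genes that mark the LSK gate and its subsets, Slamf1, carried by long-term stem cells, rose by 1.52 (SE 0.17, adjusted p = 0.0196), with 32.2 to 35.7 CPM in Asxl2-/- libraries and 10.4 to 16.0 in controls. Kit, which encodes the c-Kit of the gate, had a log2 fold change of 0.23 (adjusted p = 0.453). Ly6a, which encodes Sca-1, had 52.6 to 69.1 CPM in Asxl2-/- libraries and 40.5, 259.8 and 147.7 in control replicates 1, 2 and 3, so that control replicate 1, the control with the highest exon-count member levels, stood apart here too. No defining gate marker was absent.

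Of 10 B-lymphoid markers 9 were raised, with a summed level of 210.3 to 248.7 CPM in Asxl2-/- libraries and 47.5 to 71.5 in controls. Of 10 megakaryocyte markers 5 were raised. All 10 were higher at an unadjusted edgeR p under 0.05, as were all 10 B-lymphoid markers. Their sums were 363.1 to 427.8 CPM in Asxl2-/- libraries against 183.8 in the control among gene-count files. In the exon-count files they were 889.1 CPM in Asxl2-/- replicate 2 against 253.0 to 392.0 in controls, so over mixed file kinds the sums overlapped. Among 10 erythroid markers 0 passed the edgeR threshold and 6 had an unadjusted p under 0.05 with a lower value. Their sums were 651.3 to 1237 CPM in Asxl2-/- libraries against 1857 to 2862 in controls, and most of each sum came from Car1 and Tfrc. The list was not uniform, since 2 of the 10 had a log2 fold change above 0, Hbb-bt with 0.19 and Slc4a1 with 0.29. Of 10 myeloid markers 1 was raised, Ngp, and 2, Ngp and Itgam, were higher at an unadjusted p under 0.05. Their sums went opposite ways by file kind, 2537 to 4568 CPM in Asxl2-/- libraries against 8314 in the control among gene-count files and 6723 against 2574 to 5048 among exon-count files. T and NK markers did likewise, with 124.4 to 159.1 against 166.9 CPM and 177.9 against 136.6 to 145.3 CPM (0 called of 9, with 1 lower at an unadjusted p under 0.05). Sums overlapped for endothelial and stromal markers (185.0 to 286.3 against 129.0 to 196.4, 0 called of 10, with 1 higher at an unadjusted p under 0.05). No marker of these lists was at 0 in every library. Over all genes tested, 2.04% were raised and 0.304% lowered past the edgeR threshold. At an unadjusted edgeR p under 0.05, 15.0% were higher and 12.6% lower. The part of these shifts in the higher levels of the HoxA members was not tested.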

How the data were processed

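RNA-seq of LSK cells from 3 Asxl2-/- and 3 control mice was analysed from the raw counts the authors deposited, per transcript in 3 files and per exon in the other 3, on mm10 with RefSeq transcripts. The submitters' processing notes name STAR, featureCounts and DESeq2 without versions; the counting settings are not given in the sources used here. Libraries were poly(A)-selected and unstranded. The study tested with Cuffdiff, which needs reads and was not used here.

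Each symbol was represented by its longest transcript, and exon counts were summed over it. Counts were tested with edgeR 4.0.16 (quasi-likelihood, TMM, filterByExpr) in R 4.3.3, with file kind and group as terms (3 residual degrees of freedom) and Benjamini-Hochberg adjustment over 14145 genes at 0.05. SEs came from the fold change and F statistic. Because the removal of file kind uses the same libraries, SDs are somewhat too small. Ratios and intervals were computed with scipy 1.17.1 in Python 3.11.15. The model was tested on simulated data. DESeq2 1.42.0, limma 3.58.1 (voom) and other settings were alternatives. The genome at hand was of another build, so coordinates come from the files and gene tables; GC values came from its transcripts by symbol.

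The members were the symbols given for the cluster. All members, other cluster genes, flanking genes and, from each list, genes of smallest p were named; some results under this rule are not reported here. The members and lists were chosen with earlier results of these data known. The study calls the replicates biological; nothing else ties a library to a mouse, so p-values measure the spread between these libraries.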

Additional observations from a re-analysis of the deposited data

How the results depend on the processing

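The 8 member fold changes were recomputed 176 times over the alternatives, and the direction held in 174. The alternatives reuse the same 6 libraries, so these are not independent repeats. Both exceptions were Hoxa4, at -0.28 with exon-count files only and -0.30 without control replicate 2 (its range with 1 library left out was -0.30 to 1.29). They rest on the same contrast, since without control replicate 2 only the exon-count files hold both groups. Likewise, without Asxl2-/- replicate 2 only the gene-count files hold both groups. Hoxa10 passed the threshold in 16 of 20 fits, with log2 fold changes of 1.93 to 2.36. The 4 fits in which it did not pass each left out 1 library, with edgeR adjusted p of up to 0.110. Its lowest edgeR adjusted p, 6.11e-22, came from the replicate block with file kind, a fit with 1 residual degree of freedom that is described below.

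All genes past the threshold numbered 331, 277 of them past 1 on the log2 scale in either direction, and the members past it 1. These became 2302 (1174 raised) and 6 with DESeq2, 161 (142 raised) and 1 with library size scaling only, and 0 to 6 members and 9 to 1312 genes when 1 library was left out. The median of the members was 1.76 among gene-count and 0.76 among exon-count files, and 0.67 to 1.76 with 1 library left out. Each kind of file alone gave no test and hence no count of calls. No scaling moved the median of all genes by over 0.1.

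No label says what a replicate number marks. Deviations from the group means correlated by 0.31, 0.05 and 0.01 for the same numbers, each of which joins a gene-count and an exon-count file. With file kind removed the values were 0.63, 1 and 0.38, each the highest for its Asxl2-/- library, but the 1 follows from the design. The data therefore do not settle whether the numbers pair the libraries, and they were not taken as pairs. A replicate block with file kind, which leaves 1 residual degree of freedom, called 5179 genes (2767 raised) and 7 members, all but Hoxa4; with a GC correction added it called 4239 (1819 raised) and 7. The replicate block without file kind called 380 genes and 1 member. Mean ratio differences, such as 1.06 for Hoxa10 to Hoxa9, are identical under the block by construction.

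Ratios that changed sign were Hoxa9 to Hoxa7 with the largest exon in the exon-count files (-0.11) and, with 1 library left out, Hoxa6 to Hoxa5 (-0.18 to 0.10), Hoxa7 to Hoxa6 (-0.41 to 0.040) and Hoxa9 to Hoxa7 (-0.13 to 0.26). The cause was not tested. The other 4 ratios kept their sign, but Hoxa3 to Hoxa2 went from -0.43 to -0.20 with the largest exon, and its groups then overlapped (exact permutation p = 0.7). Limits are the 3 residual degrees of freedom, 1 Asxl2-/- library with exon counts, and 11 to 91 counts per library for Hoxa2, Hoxa4 and Hoxa6.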
